A study of Mus musculus with 10 samples.

Results

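The 8 immediate early transcription factor genes Fos, Fosb, Fosl1, Jun, Junb, Egr1, Atf3 and Myc were followed through maps of H4K20me1 and elongating RNA polymerase II in cultured mouse muscle stem cells (MuSCs). Members were found by the gene symbol or identifier that the deposited tables list with each peak, and every peak was kept singly and also added up by gene identifier. They are 8 of 18256 genes listed with a peak for either antibody. In the H4K20me1 map 4 members of 14565 listed genes had a peak (Fos, Jun, Egr1 and Atf3, with 5 of 44925 peaks). In the map of Pol II phosphorylated at serine 2 (Pol II S2P) 7 members of 11251 listed genes had a peak (all but Fos, with 18 of 51322 peaks).

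Immediate early genes are transcribed within minutes of a stimulus such as serum or a growth factor, from promoters that are already open, without new protein synthesis. FOS proteins pair with JUN proteins through leucine zippers to form the AP-1 factor, and ATF3, EGR1 and MYC are further DNA-binding factors switched on in the same way. In muscle these genes are known to respond when satellite cells are dissociated from the fibre and enter the cell cycle. H4K20me1 is the monomethylated form of lysine 20 of histone H4, and KMT5B (SUV4-20H1) is an enzyme that converts it to the dimethylated form. Phosphorylation of serine 2 in the C-terminal repeat marks Pol II that has moved into elongation and often accumulates towards the ends of genes.

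The maps were made by CUT&RUN, in which an antibody tethers a nuclease that releases the DNA around its target. Control cells (Ctrl, labelled Pax7CreERT/Suv4-20h1WT) and mutant cells (sKO, labelled Pax7CreERT/Suv4-20h1KO) both carried the Pax7-driven, tamoxifen-inducible Cre, so that sKO lost Kmt5b in cells expressing Pax7 and their progeny. MuSCs were isolated from tamoxifen-treated C57BL/6 mice with magnetic beads and expanded in medium containing fetal calf serum, LIF and bFGF, so the cells were not serum-starved. There were 2 libraries per genotype and antibody, and the 2 IgG libraries, 1 per genotype, were not analysed here. In such bulk libraries a smaller share of cells carrying a signal and less signal per cell cannot be told apart, and p-values measure only the spread between these libraries. On the deposited scale limma in effect took that spread from a trend over all genes or peaks of similar mean score. The SE, interval and limma p of a gene there do not measure the spread of its own libraries.

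The score of a peak is a whole number that stands for coverage normalised by spike-in and is not divided by peak length. Scores summed over all peaks came to between 15218720 and 20432644 in the Ctrl and between 32194136 and 35046570 in the sKO libraries for H4K20me1, and to between 3257665 and 4885638 for Pol II S2P, with overlapping genotypes. Kmt5b had summed H4K20me1 scores of 1332 and 1740 in the Ctrl libraries, 1934 and 2196 in the sKO libraries, and Pol II S2P scores of 24 and 62 in the Ctrl pair against 48 and 22 in the sKO pair. Whether its peaks cover the deleted part was not examined, so these scores do not check the genotype. Of 11 satellite cell and myoblast markers 9 were listed with Pol II S2P peaks, with summed scores between 7095 and 10415 per library, whereas Myf5 and Cdh15 were not listed. Myod1, the myogenic determination factor, stood at 1329 and 1110 for Pol II S2P in the Ctrl pair against 887 and 649 in the sKO pair (log2 fold change -0.68, not called). At equal totals it was called lower (-0.82, limma adjusted p = 0.000475), beside 0.855% of all genes. Myod1 was the lowest of the 8 markers tested, whose log2 fold changes had a median of 0.05 and a highest value of 0.16. Markers of other cells in the Pol II S2P table were 3 of 7 fibro-adipogenic (398 to 649), 3 of 7 endothelial (160 to 319), 2 of 7 leukocyte (874 to 1368), 5 of 7 smooth muscle and pericyte (2102 to 3259) and 4 Schwann cell genes (8724 to 13830). Of the genes on these lists, Pdgfra, Cdh5, Ptprc and Myh11 were not listed there, whereas Pecam1, Tek, Cd68, Acta2, Rgs5 and Sox10 were. The part of such cells in the results was not tested.

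Where the peaks lay differed between the antibodies. In a window from 250 bases before to 50 bases after the annotated start, 7 of 8 members held a Pol II S2P peak, against 31.4% of 20807 autosomal protein-coding genes. Only Atf3 did not, at its GENCODE M21 start, whereas its RefSeq start, which lies inside that gene, is under a Pol II S2P peak. An H4K20me1 peak reached this window in 2 of 8 members (Fos and Atf3), against 44.1% of the same genes. The combination of a Pol II S2P peak with no H4K20me1 peak at the start was found in 6 of 8 members and in 14.6% of all these genes. H4K20me1 at Jun and Egr1 lay instead over the gene body and beyond its end, as the map of peaks by distance from the start shows.

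**Figure D1:**
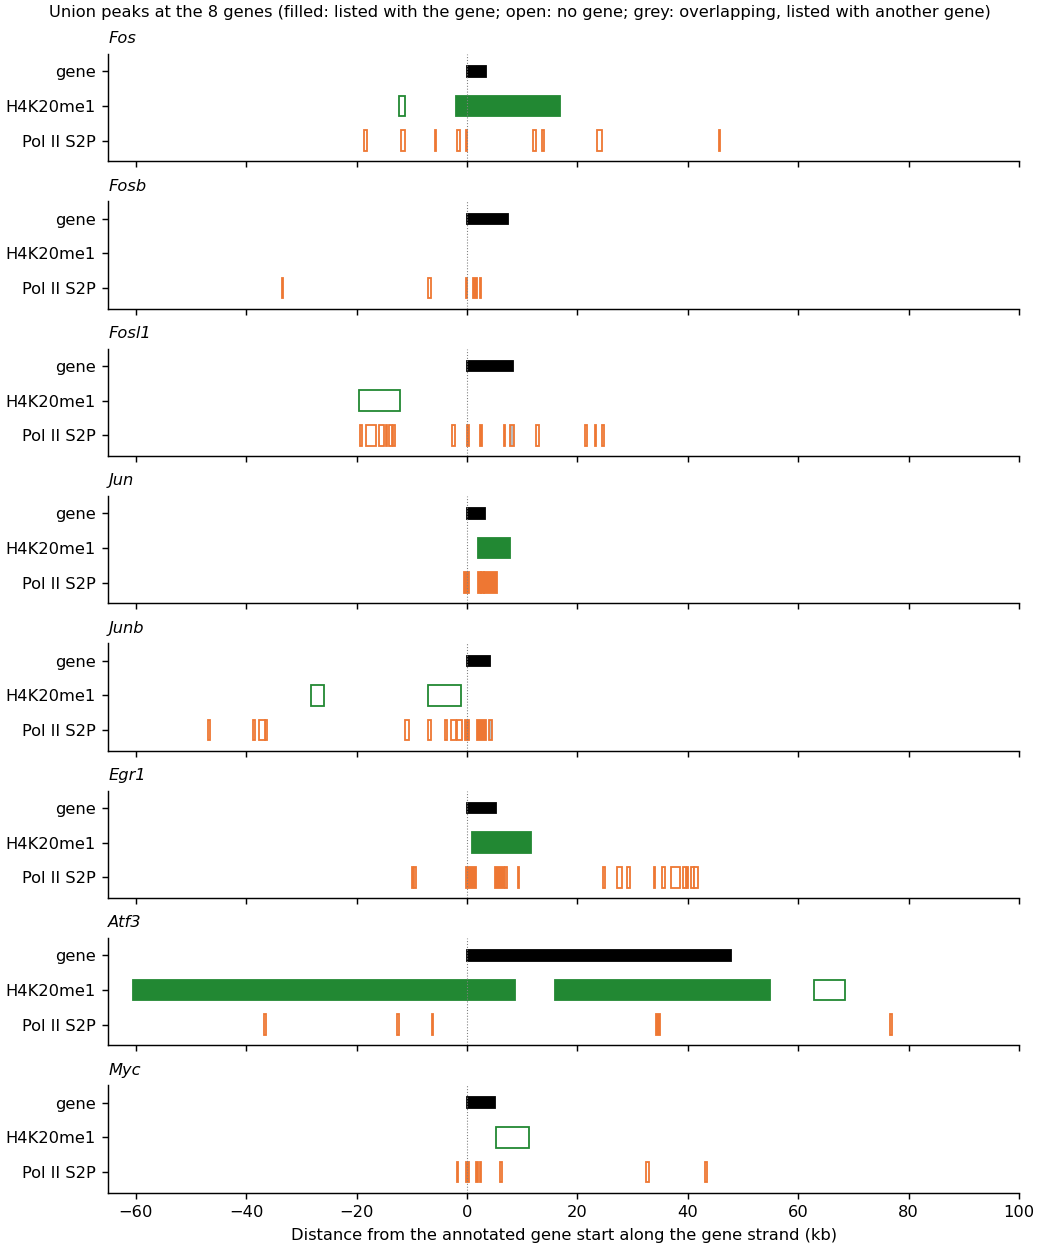
Union peaks at the 8 genes, with the distance from the annotated gene start along the gene strand in kb on the horizontal axis and the gene, the H4K20me1 peaks and the Pol II S2P peaks as bars in 3 lanes. Filled bars are peaks listed with the gene, open bars are peaks within 50 kb listed with no gene, and grey bars overlap the gene but are listed with another; 7 of 8 starts carry a Pol II S2P peak and 2 of 8 an H4K20me1 peak.

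H4K20me1 was higher in both sKO libraries than in both Ctrl libraries at all 4 members that had a peak, an order also found in 96.5% of the 13750 genes tested. The test called 3 of the 4 higher (Fos, Jun and Atf3), beside 92.3% of all genes, and none lower, beside 0% of all genes. Calls were made with limma at an adjusted p under 0.1 where the log2 fold change also passed 0.5 or -0.5. Since the median gene rose by a log2 fold change of 1.11, the members are given below against that shift as well.

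Fos (ENSMUSG00000021250, chr12:85473890-85477273 on GRCm38, plus strand), the dimerisation partner that gives AP-1 much of its DNA affinity, showed the largest H4K20me1 change of the members. Its only listed peak is 19000 bases long and runs from 2090 bases before the start, over the whole gene, to 16909 bases after the start. The scores were 279 and 298 in the Ctrl libraries, 995 and 1078 in the sKO libraries, so that the lower sKO library was far above the higher Ctrl library. The means were 288.5 ± 13.4 and 1036.5 ± 58.7 (SD, n = 2). The log2 fold change was 1.84 ± 0.27 (SE), with a 95% interval from 1.32 to 2.37 and a limma adjusted p of 1.97e-10, and exceeded the median gene by 0.73.

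Jun (ENSMUSG00000052684, chr4:95049034-95052222, minus strand), the other founding AP-1 subunit and a gene without introns, had an H4K20me1 peak of 5800 bases that began 2023 bases after its start and ended 7822 bases after it. Only 1166 bases of this peak lay in the gene, at its 3′ end. The scores were 105 and 138 in the Ctrl pair against 312 and 347 in the sKO pair, with no overlap. The log2 fold change reached 1.44 ± 0.33 (SE, limma adjusted p = 3.10e-05), or 0.33 above the median gene. Under quantile normalisation it was 0.09 and Jun was no longer called (limma adjusted p = 0.768).

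Atf3 (ENSMUSG00000026628, chr1:191170296-191218039, minus strand), a stress-induced factor that can repress its own promoter, is the longest member at 47.744 kb and had 2 broad H4K20me1 peaks. The peak of 39000 bases over its 3′ part had scores of 1163 and 1536 in the Ctrl libraries, 1934 and 2128 in the sKO libraries (log2 fold change 0.60, limma adjusted p = 0.0322). The peak of 69200 bases over its annotated start, of which 8640 bases lay in the gene, had 1459 and 1764 in the Ctrl pair against 3336 and 3545 in the sKO pair (1.10, limma adjusted p = 0.000182). Both peaks were higher in every sKO library, and the upstream peak gained more. At equal totals they went opposite ways, the peak of 39000 bases to -0.33 (limma adjusted p = 0.000126) and the other to 0.17 (limma adjusted p = 0.0278), neither past the limit of 0.5. The peak of 39000 bases also covers the RefSeq start of Atf3 described below. Summed, Atf3 went from 2622 and 3300 to 5270 and 5673, or 0.89 ± 0.28 on the log2 scale (SE, limma adjusted p = 0.00238), and this call was lost without sKO replicate 1 (limma adjusted p = 0.201) or sKO replicate 2 (limma adjusted p = 0.270).

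Egr1 (ENSMUSG00000038418, chr18:34859823-34864984, plus strand), a zinc finger factor induced through serum response elements, differed least between genotypes. Its peak of 10600 bases began 977 bases after the start and continued past the gene end. The scores were 328 and 395 in the Ctrl libraries, 505 and 501 in the sKO libraries, higher in sKO but by less than in the other members. The change of 0.48 ± 0.27 on the log2 scale (SE, limma adjusted p = 0.0855) stayed under the limit of 0.5 and lay 0.63 below the median gene. Without Ctrl replicate 2 it was 0.62 and Egr1 was called (limma adjusted p = 0.00370).

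**Figure D2:**
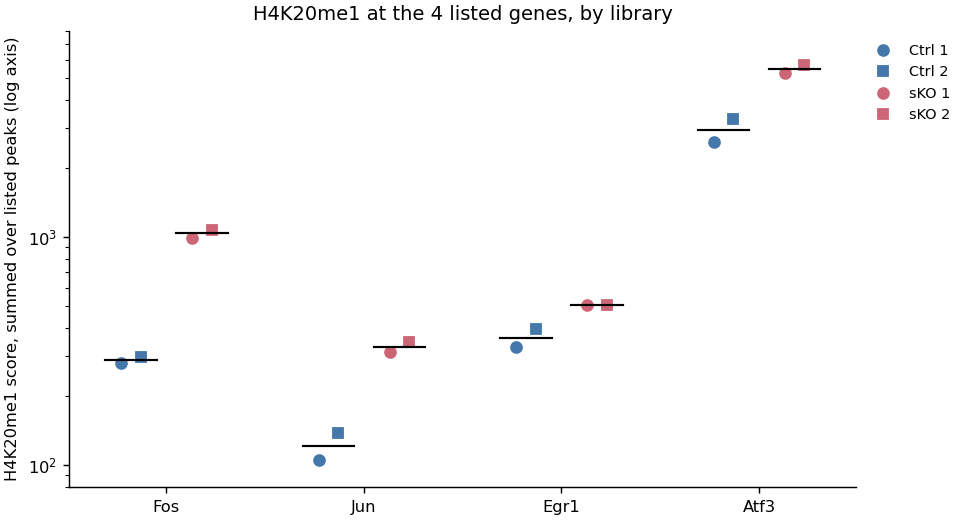
H4K20me1 score summed over the peaks listed with each gene (log axis), with 1 point per library and a bar at each group mean (n = 2). At Fos, Jun, Egr1 and Atf3 both sKO points lie above both Ctrl points, with the widest gap at Fos and the narrowest at Egr1.

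Fos stood highest and Egr1 lowest of the 4 members under each of 3 scalings. After each library was scaled to the same total, the median gene moved by 0.18 in place of 1.11, and the calls became 24.0% of 13752 genes higher and 4.31% lower. On that scale 2 of the 4 members were called higher, Fos at 0.91 (limma adjusted p = 3.57e-08) and Jun at 0.52 (limma adjusted p = 0.0492). Atf3 stood at -0.04 and Egr1 at -0.45 (limma adjusted p = 0.00900), with neither called. Quantile normalisation left 1 member called higher, Fos at 0.62 (limma adjusted p = 7.09e-05), while Egr1 was called lower at -0.78 (limma adjusted p = 1.39e-05). The direction of Egr1 thus turned under both scalings and that of Atf3 at equal totals, and Fos was the only member called higher under all 3.

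Ratios of members within a library do not use any scale between libraries. The H4K20me1 score of Fos divided by that of Egr1 was 0.851 and 0.754 in Ctrl but 1.97 and 2.15 in sKO, with Fos below Egr1 in the first and above it in the second. The ratio of Jun to Egr1 was 0.335 ± 0.0207 in Ctrl and 0.655 ± 0.0529 in sKO, and that of Atf3 to Egr1 was 8.17 ± 0.255 and 10.9 ± 0.628 (SD, n = 2). None of the 3 ratios overlapped between genotypes, but all 3 are divided by Egr1, the member that rose least, and so are not independent. How often ratios of other gene pairs show such an order was not examined. Each gave p = 0.333 in a two-sided exact permutation test, the smallest p that 2 libraries against 2 allow, and the ratios were chosen after the values had been seen.

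Divided by peak length, H4K20me1 at the members was uneven in Ctrl and even in sKO. Over the 5 listed peaks the score per kb of peak ran from 14.7 to 30.9 in Ctrl replicate 1 and from 15.7 to 39.4 in Ctrl replicate 2, a 2.11-fold and a 2.51-fold range. In sKO it ran from 47.6 to 53.8 and from 47.3 to 59.8, a 1.13-fold and a 1.27-fold range. Fos was the lowest of the 5 in both Ctrl libraries and lay within the narrow sKO range. Over all 41008 autosomal peaks the upper quartile was 1.52 and 1.59 times the lower in Ctrl, and 1.24 and 1.25 times in sKO, so a narrower spread was found in the whole map and is not particular to these genes.

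H4K20me1 peaks listed with no gene lay within 50 kb of 5 members, 6 peaks in all. All 6 were higher in each sKO library than in either Ctrl library, and 5 were called higher, beside 93.9% and 90.1% of the 40902 peaks tested. Fosl1, Junb and Myc had such a peak although they had none listed. The one upstream of Fosl1, from 19547 to 12148 bases before its start, had 69 and 81 in the Ctrl pair against 423 and 382 in the sKO pair, which is 2.41 on the log2 scale (limma adjusted p = 1.65e-10).

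Upstream of Junb, a peak from 7081 to 1082 bases before the start had 42 and 62 in the Ctrl libraries, 367 and 291 in the sKO libraries (log2 fold change 2.65, limma adjusted p = 3.59e-10). A further Junb peak, beginning 28281 bases before the start, had 34 and 88 in the Ctrl pair against 106 and 103 in the sKO pair (0.92, limma adjusted p = 0.0799). The nearer Junb peak thus gained more than the median peak, at 1.14, and the farther one less. Behind Myc, a peak that began 226 bases past the gene end had 88 and 91 in the Ctrl libraries, 329 and 221 in the sKO libraries (1.58, limma adjusted p = 3.61e-05).

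The small peak 12290 to 11291 bases before Fos had 0 and 23 in the Ctrl pair against 104 and 86 in the sKO pair. Its fitted log2 fold change of 4.29 depends on the pseudocount because 1 Ctrl library was at 0. With a Ctrl mean of 11.5 and an sKO mean of 95, this peak passed the minimum mean of 50 only through the sKO libraries. That favours a higher call, and the peak is among those counted above as called higher. It was not tested at equal totals. The peak past the end of Atf3 was the one not called, with 105 and 158 in the Ctrl libraries, 161 and 233 in the sKO libraries (0.58, limma adjusted p = 0.110). Scaled to equal totals, the Fosl1 peak stood at 1.49, the nearer Junb peak at 1.74 and the Myc peak at 0.66, while the farther Junb peak stood at 0.00 and the Atf3 peak at -0.34. The plot of scores per kb shows that the Fosl1 peak and the nearer Junb peak had low levels in Ctrl and reached the range of other peaks in sKO.

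**Figure D3:**
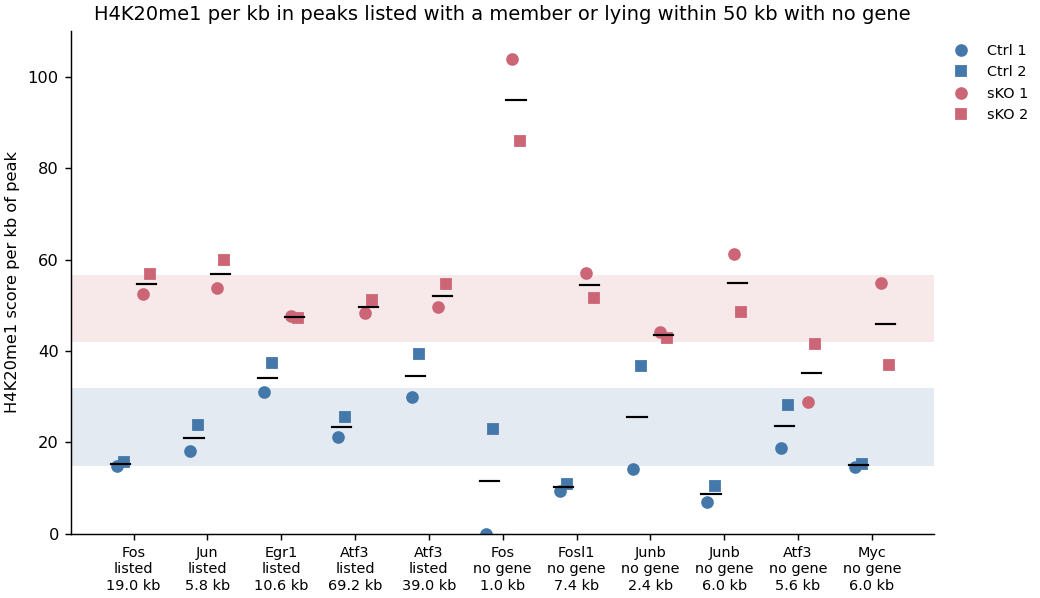
H4K20me1 score per kb of peak in the 5 peaks listed with a member and the 6 peaks within 50 kb that are listed with no gene, with 1 point per library, a bar at each group mean (n = 2) and the peak length under each name. Shaded bands run from the lower of the 2 lower quartiles to the higher of the 2 upper quartiles of all autosomal peaks in Ctrl (blue) and sKO (red); the listed peaks spread over 14.7 to 39.4 in Ctrl but over 47.3 to 59.8 in sKO.

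No H4K20me1 peak lay near Fosb, the remaining Fos family gene (ENSMUSG00000003545, chr7:19302696-19310051, minus strand), among those listed with it or with no gene.

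Pol II S2P showed no called difference at these genes. None of the 7 members tested was called in either direction. Of all 8531 genes tested 0% were called higher and 0% lower, with 100 genes at an unadjusted p under 0.05. The SE of the 7 on this deposited scale ran from 0.41 (Atf3) to 0.43 (Egr1), too wide for any gene tested to be called. The lack of a call there therefore cannot decide whether a member differed between genotypes. Not 1 of the 7 was above both Ctrl libraries in each sKO library, an order found in 9.41% of all genes, and 1 of the 7 (Myc) had both below, found in 4.52%. Scaled to equal totals, again none of the 7 was called, beside 1.26% of 8538 genes higher and 0.855% lower. The limma adjusted p was 1 for each of the 7 as deposited.

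Jun had the highest Pol II S2P sum per kb of gene of the members, a sum to which a peak lying mostly past the gene contributed. Its scores were 777 and 1030 in the Ctrl pair against 779 and 693 in the sKO pair, with overlapping groups, and the log2 fold change was -0.28 ± 0.43 (SE, 95% interval -1.12 to 0.56). At equal totals it was -0.42 (limma adjusted p = 0.0659), short of the limit of -0.5. Of its 4 peaks the largest, 2402 bases long with 115 of them in the gene, ran from 3074 to 5475 bases after the start, inside the stretch covered by the H4K20me1 peak, and had 392 and 554 in the Ctrl libraries, 419 and 351 in the sKO libraries. The peak over the start had 238 and 350 in the Ctrl pair against 241 and 235 in the sKO pair. A small peak in the gene body was the only 1 of the 13 tested listed peaks with both sKO libraries below both Ctrl libraries (70 and 79 against 67 and 50), beside 6.84% of all 22353 peaks tested.

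Egr1 followed, with 942 and 934 in the Ctrl libraries, 950 and 719 in the sKO libraries (log2 fold change -0.18 ± 0.43, SE). Its signal was mostly at the start, in a peak of 1819 bases with 702 and 721 in the Ctrl pair against 730 and 550 in the sKO pair. The peak across its end had 240 and 213 in the Ctrl libraries, 220 and 169 in the sKO libraries. In both peaks sKO replicate 2 was the lowest. Its total over all peaks, 3435908, was the lower of the sKO pair but above the 3257665 of Ctrl replicate 1.

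Junb (ENSMUSG00000052837, chr8:84974484-84978718, minus strand), a Jun family member with weaker activating capacity, had 370 and 479 in the Ctrl pair against 413 and 312 in the sKO pair (-0.23 ± 0.42, SE). Unlike Egr1, most of its signal lay in a body peak of 1521 bases, with 307 and 365 in the Ctrl libraries, 325 and 238 in the sKO libraries. The start peak held 63 and 114 in the Ctrl pair against 88 and 74 in the sKO pair. A peak across the Junb 3′ end, listed with the neighbour Prdx2, had 55 and 97 in the Ctrl libraries, 48 and 41 in the sKO libraries (-0.71, not called), and is not part of the Junb sum.

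Fosb, whose product forms AP-1 in the same way as FOS, had 225 and 318 in the Ctrl pair against 340 and 266 in the sKO pair (0.17 ± 0.41, SE), and its start peak 97 and 131 in the Ctrl libraries, 172 and 112 in the sKO libraries. Fosl1 (ENSMUSG00000024912, chr19:5447547-5455946, plus strand), which encodes FRA1, had 136 and 146 in the Ctrl pair against 139 and 109 in the sKO pair (-0.19 ± 0.41, SE). In both genes the groups overlapped. A peak across the Fosl1 3′ end, listed with Ccdc85b, had 80 and 85 in the Ctrl libraries, 86 and 88 in the sKO libraries (0.08, not called).

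Myc (ENSMUSG00000022346, chr15:61985391-61990374, plus strand), a driver of growth and cell cycle genes, had 128 and 124 in the Ctrl pair against 85 and 110 in the sKO pair. It was the only member whose groups did not overlap. Its log2 fold change was -0.38 ± 0.42 (SE), with a 95% interval from -1.20 to 0.44 that includes both a fall and a rise. Atf3 had the smallest difference, with 161 and 194 in the Ctrl libraries, 173 and 188 in the sKO libraries (0.03 ± 0.41, SE, 95% interval -0.77 to 0.82).

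**Figure D4:**
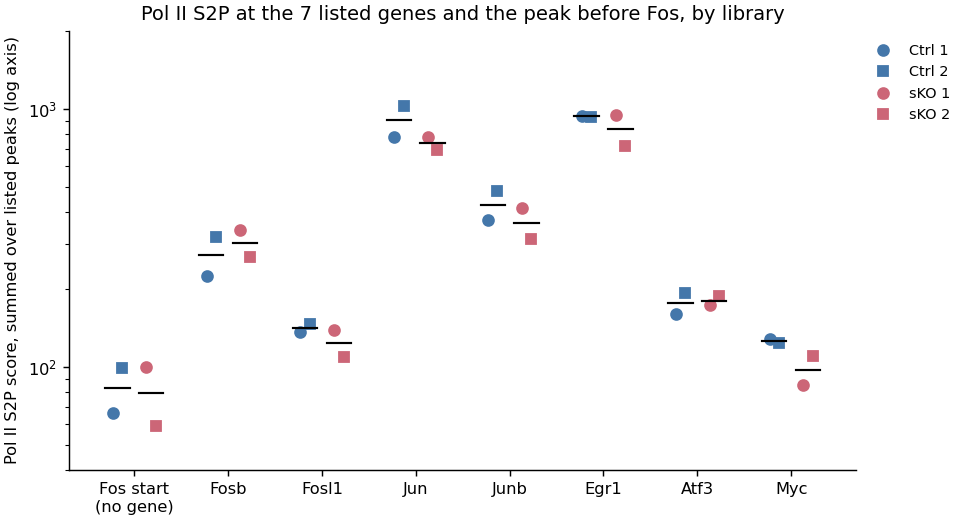
Pol II S2P score (log axis) summed over the peaks listed with each of 7 genes, and of the peak just before the Fos start, with 1 point per library and a bar at each group mean (n = 2). Ctrl and sKO points overlap everywhere but at Myc, where both sKO points (85 and 110) lie below both Ctrl points (124 and 128).

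Fos itself was not listed with any Pol II S2P peak, yet a peak of 263 bases ended 6 bases before its start and was listed with no gene. Its scores were 66 and 99 in the Ctrl pair against 100 and 59 in the sKO pair (log2 fold change -0.07), with overlapping groups. A Pol II S2P peak before the start, with none over the gene and none listed with it, was found in 364 of the 20807 protein-coding genes (1.75%). The strongest of the 9 peaks with no gene within 50 kb of Fos lay 23497 bases after the start, with 284 and 416 in the Ctrl libraries, 363 and 210 in the sKO libraries (-0.31). Another, 18665 bases before the start, had 176 and 173 in the Ctrl pair against 188 and 154 in the sKO pair (-0.04).

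Around all 8 members 53 Pol II S2P peaks were listed with no gene within 50 kb, and 28 of them were tested. None was called, as was none of the 13 tested peaks listed with a member, beside 0.0447% of all peaks called higher and 0.00447% lower. Both sKO libraries were above both Ctrl libraries in 4 of the 28 (16.7% of all peaks) and below in 3 (6.84% of all peaks). The 4 included a peak 35395 bases after the Egr1 start, with 31 and 53 in the Ctrl libraries, 109 and 62 in the sKO libraries (1.0). With a Ctrl mean of 42 and an sKO mean of 85.5, it passed the minimum mean of 50 only through the sKO libraries, which favours this order. Another of the 4 began 7152 bases before the Fosb start, with 72 and 100 in the Ctrl pair against 188 and 113 in the sKO pair (0.77). The share of a member's Pol II S2P away from its start differed between genes more than between genotypes. For Jun the listed peaks away from the start held 2.1 ± 0.228 times the start peak in Ctrl and 2.09 ± 0.200 times in sKO, and for Egr1 0.319 ± 0.0329 and 0.304 ± 0.00417 times (SD, n = 2). Of the 6 genes with such peaks only Fosl1 had ratios that did not overlap, 0.796 ± 0.0416 in Ctrl and 0.549 ± 0.0188 in sKO (exact permutation p = 0.333, the smallest possible). Its peaks away from the start scored 36 and 50 in Ctrl against 37 and 24 in sKO, and 23 and 16 against 13 and 14. These peaks were under the minimum mean of 50 and were not tested. How often such ratios of other genes fail to overlap was not examined.

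**Figure D5:**
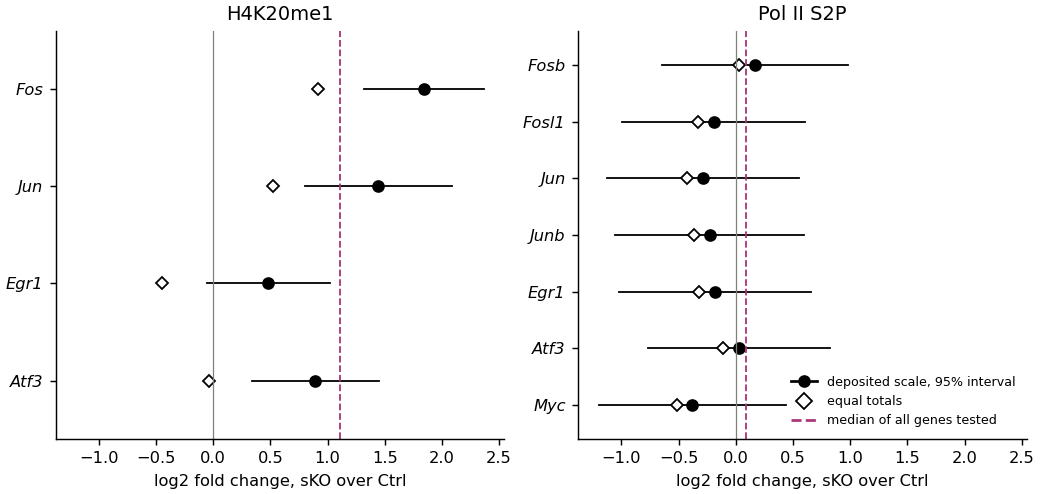
The log2 fold change of sKO over Ctrl for each member, on log2(score + 1), with its 95% interval from limma (filled points, deposited scale; open diamonds, libraries scaled to equal totals). The dashed line is the median of all genes tested, at 1.11 (H4K20me1) and 0.09 (Pol II S2P); for H4K20me1 Fos lies highest and Egr1 lowest, and every Pol II S2P interval includes 0.

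Per kb of gene, the Pol II S2P score ranked the members as Jun, Egr1, Junb, Fosb, Myc, Fosl1 and Atf3. Jun ranged from 217 to 323 over the 4 libraries, Egr1 from 139 to 184, Junb from 73.7 to 113 and Fosb from 30.6 to 46.2 score per kb of gene, and these ranges did not overlap. Myc (17.1 to 25.7) and Fosl1 (13 to 17.4) overlapped, and Atf3 lay lowest at 3.37 to 4.06. Among 8520 genes with a length, Jun was at the 97.9 to 98.7 percentile of score per kb, Egr1 at 96.8 to 97.9, Junb at 92.7 to 94.8 and Atf3 at 27.4 to 36.9. The Pol II S2P level of Jun and Egr1 was thus close to the top of the map in both genotypes. Because the sums include peaks that reach beyond a gene, the level per kb of a short gene such as Jun is raised. Per kb of peak, the Egr1 start peak (386 and 396 in Ctrl, 401 and 302 in sKO) was above the Jun start peak (300 and 441 in Ctrl, 304 and 296 in sKO) in 3 of 4 libraries.

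H4K20me1 per kb of gene placed Fos highest, at the 90.4 to 94.7 percentile of 13729 genes, but this rank turns with the divisor. Of the 19000 bases of its peak only 3384 lie in the gene, and per kb of peak Fos was the lowest of the 5 listed peaks in both Ctrl libraries (14.7 and 15.7). Egr1 moved from the 89.8 and 88.5 percentile in Ctrl to 83.8 and 81.4 in sKO, and Jun from 73.3 and 73.1 to 83.8 and 84.2. Atf3 kept to between 86.1 and 87.6. The Ctrl levels of Egr1 (63.5 and 76.5 score per kb of gene) and Atf3 (54.9 and 69.1) overlapped, and in sKO Jun (97.8 and 109) and Egr1 (97.8 and 97.1) were at nearly the same level.

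Over the 8 libraries of both antibodies, the gene with the level most like Jun, by Euclidean distance in log2(score per kb of gene + 1) among 5845 genes, was Tmem126a at a distance of 0.92. Rplp0 was nearest to Egr1 at 0.66, and Nrdc nearest to Atf3 at 0.29. The median distance to all genes was 11.4, 10.5 and 4.28 for the 3 members.

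RefSeq promoter sequences on GRCm38.p6, from 250 bases before to 50 bases after the start, were found for Fos, Fosb, Jun, Junb and Atf3. All 5 promoters lay under a Pol II S2P peak, against 24.4% of 31396 promoters, and those of Fos and Atf3 also under an H4K20me1 peak, against 42.2%. For Atf3 the RefSeq start lies 34706 bases inside the gene as GENCODE M21 draws it, and its only listed Pol II S2P peak, from 34248 to 34928 bases after the GENCODE start, covers this RefSeq start. Fosl1, Egr1 and Myc had no entry.

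Of the 5 promoters under Pol II S2P, the 4 that hold one of the motifs marked below are shown. At Fos, Pol II S2P was found just before the start and not over the gene. Capitals mark matches on either strand to TGACG, the core of the cyclic AMP response element, which was chosen after other values had been seen, and to TATAAA, the TATA box. They are given 5′ to 3′ along the gene strand for Fos (chr12:85473640-85473939, plus strand, 245 of 300 bases under the Pol II S2P peak), Fosb (chr7:19309996-19310295, minus strand), Junb (chr8:84978699-84978998, minus strand) and Atf3 (chr1:191183284-191183583, minus strand).
Fos: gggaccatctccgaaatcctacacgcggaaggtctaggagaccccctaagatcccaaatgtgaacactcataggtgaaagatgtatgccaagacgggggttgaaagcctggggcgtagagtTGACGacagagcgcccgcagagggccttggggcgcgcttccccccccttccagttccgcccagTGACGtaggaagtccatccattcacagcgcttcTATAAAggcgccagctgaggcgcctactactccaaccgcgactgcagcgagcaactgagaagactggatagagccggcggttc
Fosb: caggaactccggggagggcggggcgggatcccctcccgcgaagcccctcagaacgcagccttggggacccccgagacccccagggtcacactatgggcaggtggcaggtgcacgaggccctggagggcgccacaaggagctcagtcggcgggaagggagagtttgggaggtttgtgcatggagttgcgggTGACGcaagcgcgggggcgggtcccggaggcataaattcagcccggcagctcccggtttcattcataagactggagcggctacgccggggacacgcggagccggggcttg
Junb: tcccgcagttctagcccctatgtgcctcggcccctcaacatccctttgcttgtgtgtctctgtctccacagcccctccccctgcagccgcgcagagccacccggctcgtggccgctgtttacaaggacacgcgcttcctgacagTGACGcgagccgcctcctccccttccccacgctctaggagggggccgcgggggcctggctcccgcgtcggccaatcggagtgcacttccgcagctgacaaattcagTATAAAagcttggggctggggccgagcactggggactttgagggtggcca
Atf3: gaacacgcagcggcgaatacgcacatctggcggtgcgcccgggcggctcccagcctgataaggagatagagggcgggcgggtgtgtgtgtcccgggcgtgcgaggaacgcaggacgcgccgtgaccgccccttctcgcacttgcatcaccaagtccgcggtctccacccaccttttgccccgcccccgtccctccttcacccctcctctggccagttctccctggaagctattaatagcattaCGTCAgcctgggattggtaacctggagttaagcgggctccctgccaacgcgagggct

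TGACG was found in 4 of the 5 promoters and in 20.8% of the 32851 promoters of the same length. At Fos it began 129 and 66 bases before the start, at Fosb 60 and at Junb 106 bases before it, all on the gene strand, and at Atf3 it was on the opposite strand. TATAAA was found in Fos, 33 bases before the start, and in Junb, at the RefSeq start, which lies 30 bases before the GENCODE start; 13.6% of all promoters held it. The full cyclic AMP response element TGACGTCA (1.79% of promoters, and holding TGACG when present), the AP-1 element TGAGTCA or TGACTCA (5.20%) and the CArG box, a run of A or T between CC and GG that serum response factor binds (1.63%), matched in none of the 5. Their absence says only that these letters are not in these windows.

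Related genes were counted in the same way. For H4K20me1, 17 of 19 other AP-1 and bZIP partner genes were called higher and none lower, with a median log2 fold change of 1.09. They ran from Cebpd, a C/EBP family factor, at 1.77 (91 and 133 in Ctrl, 346 and 415 in sKO) to Batf3, a partner of JUN in immune cells, at 0.42 (not called). All 3 listed genes among the other Egr genes and Nab corepressors were called higher, from Egr3 at 1.31 to Egr2 at 0.94. In the Myc network 8 of 9 were called higher, from Mycl, a Myc paralog, at 2.33 to Mxd3, a MAX partner that opposes MYC, at 0.27 (not called). Each list's count stands beside 92.3% of all genes. At equal totals 5 of the 19 AP-1 and bZIP genes were called higher and 1 lower, none of the 3 Egr and Nab genes in either direction, and 3 of the 9 Myc network genes higher and 1 lower.

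Among other primary response genes 17 of 19 were called higher for H4K20me1, with a median log2 fold change of 1.34, and at equal totals 8 higher and 1 lower. Dusp1, a phosphatase that switches off MAP kinases, rose most at 2.24 (63 and 94 in Ctrl, 370 and 363 in sKO). Mcl1, a survival factor of the BCL2 family, was lowest at 0.01, with 428 and 426 in the Ctrl libraries, 380 and 485 in the sKO libraries, which overlap. The upstream kinases and serum response factors had the lowest median of these lists, 0.68, with 13 of 17 called higher, from Mapk3 (ERK1) at 2.31 to Mapk8 (JNK1) at 0.09 (not called). At equal totals 2 of these 17 were called higher and 4 lower, with a median of -0.25. The equal-totals counts of the lists stand beside 24.0% of all genes higher and 4.31% lower.

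For Pol II S2P no gene of these lists was called on the deposited scale, where no other gene tested was called either. At equal totals Atf5, an ATF family factor, was called lower (-0.59, limma adjusted p = 0.0354), as was Id3, an inhibitor of bHLH factors (-0.50, limma adjusted p = 0.0130), named after its values were seen, beside 0.855% of all genes. Among 34 other primary response genes tested, none stood above both Ctrl libraries in each sKO library and 6 stood below both in each, with a median log2 fold change of -0.08. Over all genes tested the shares were 9.41% above and 4.52% below. They ran from Gadd45a, a DNA damage response gene, at 0.60 to Zfp36, which encodes an mRNA decay factor, at -0.61, neither called. Of the 22 other AP-1 and bZIP partner genes tested 1 was above and 1 below, from Atf1 at 0.53 to Atf5 at -0.45. The Egr and Nab list ran from Nab1 at 0.05 to Egr2 at -0.11 and the Myc network from Mxi1 at 0.34 to Mxd1 at -0.23. The upstream kinases had 4 of 20 above and none below, from Map2k4 at 0.63 to Mapk7 at -0.24. The members, with a median of -0.19, lay below each of these lists, which range from -0.09 to 0.18 in their medians. Of the cell type marker lists, only that of smooth muscle and pericytes had a lower median, -0.24. No test was made of this order.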

How the data were processed

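Members and gene lists were chosen with earlier results of these data known. Per the labels and the study's methods, the authors trimmed reads with Trimmomatic 0.39, aligned them to mm10 (GRCm38) with STAR 2.7.3a, removed duplicates with Picard 2.21.7 and normalised coverage to S2 cell spike-in DNA. SICER 0.0.41 and MACS2 2.1.1 are named in the submitters' processing notes. The deposited score of each union peak is a whole number of normalised coverage and was not treated as a read count, so limma replaced the DESeq2 test of the authors and depth in reads is unknown. The deposited fraction of a peak that lies in its gene was used as a filter in 1 alternative. The link between scale and spike-in was not checked, which limits every difference on the deposited scale.

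Scores were summed by gene identifier. Autosomal genes or peaks with a mean over 50 were tested on log2(score + 1), which understates changes of low scores, with limma 3.58.1 (lmFit, eBayes with trend, R 4.3.3), genotype as the only term, and Benjamini-Hochberg adjustment over all features of the antibody. The procedure was also run on simulated scores with few changed genes and equal library scales. These settings differ from the data, so that run gives no error rate or power for them. Other values were computed with Python 3.11.15, pandas 2.3.3, numpy 2.4.6 and scipy 1.17.1. Gene ends are those of GENCODE M21, equal to the deposited ones for the 8 members. Named genes are the members, the extremes of each list, nearest genes, genes credited with a peak over a member, and Kmt5b. Alternatives were another scaling, pseudocount or filter, only peaks mostly inside their gene, the replicate number as a block, and leaving out each library. One marker gene is not reported here.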

Additional observations from a re-analysis of the deposited data

How the results depend on the processing

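With equal totals or quantile normalisation, H4K20me1 genes called higher went from 12690 to 3306 or 1422 and those called lower from 0 to 593 or 1531, Egr1 turned to -0.45 or -0.78 (called lower only in the second), Jun lost its call at 0.09 with quantile normalisation, and Atf3 turned to -0.035 with equal totals. Members called higher fell to 1 with quantile normalisation, and to 1 with only peaks mostly inside their gene, where Fos, Jun and Egr1 have no value. For Pol II S2P the same scalings gave 108 or 112 genes higher and 73 or 29 lower, and Atf3 turned to -0.11 or -0.056, while no filter on the mean gave 1 gene higher. At equal totals, an alternative chosen after seeing the data for peaks, 10558 H4K20me1 peaks were higher and 1359 lower, and 555 Pol II S2P peaks higher and 263 lower.

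Leaving out each library in turn, where the lone library left in a group is assumed to vary like the other group, gave 5232 to 13377 H4K20me1 genes higher and 0 to 14 lower, and 2 to 4 members higher. It gave 17871 to 39891 H4K20me1 peaks higher and 0 to 50 lower, 0 Pol II S2P genes higher and 0 to 2 lower, and 0 to 116 Pol II S2P peaks higher and 0 to 2 lower. The H4K20me1 gene count was lowest at 7349 without sKO replicate 1 and 5232 without sKO replicate 2, the Pol II S2P peak count highest at 116 without sKO replicate 2. For Pol II S2P, Fosb ranged from -0.080 to 0.42 (below 0 without Ctrl replicate 1 or sKO replicate 1), Egr1 from -0.38 to 0.018 (above 0 without sKO replicate 2) and Atf3 from -0.10 to 0.16 (below 0 without Ctrl replicate 1 or sKO replicate 2). The causes were not tested.

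Samples with the same replicate number did not deviate together across genes (r = 0.04 for H4K20me1 and -0.04 for Pol II S2P). This r leaves out any shift common to all genes. The H4K20me1 total was higher in replicate 2 of both genotypes, while the Pol II S2P total was higher in replicate 2 of Ctrl and lower in replicate 2 of sKO. Whether the numbers mark a pairing was not tested. With the replicate block 12718 H4K20me1 genes and 3 members were called higher, and 0 Pol II S2P genes. On the deposited scale the Pol II S2P intervals of the members span more than 1 log2 unit.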
